A study of Mus musculus with 58 samples.

Results

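Keratins are the intermediate filament proteins of epithelial cells. A type I (acidic) keratin pairs with a type II (basic or neutral) keratin, and the pairs assemble into filaments that anchor to desmosomes and carry mechanical load. Which pair a cell makes depends on its kind. Krt8 and Krt18, with Krt7, Krt19, Krt20 and Krt23, are made by simple epithelia, Krt5, Krt14 and Krt15 by the basal layer of stratified epithelia, Krt4, Krt13 and Krt78 by non-cornified upper layers, Krt1 and Krt10 by cornifying upper layers, and Krt6a, Krt6b, Krt16 and Krt17 by injured or fast-dividing epithelium, while the hair and nail keratins, Krt31 among them, build the hair shaft. In the mouse the forestomach is lined by a cornified stratified squamous epithelium, whereas hepatocytes make only the simple pair.

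The genes described here are those on the array whose symbol is Krt followed by digits and an optional letter. There were 53 such genes with 64 probes, of 20018 named genes and 55681 gene probes on the array, and 11 of the 53 had more than 1 probe. Adult male Muta™Mouse, transgenic mice carrying a bacterial reporter gene for scoring mutations, were dosed orally with BaA (benz(a)anthracene, one of the polycyclic aromatic hydrocarbons) on 28 days from about 10 weeks of age, and 3 tissues, lung, liver and forestomach, were collected 72 h after the final gavage. The vehicle group (D0) received the carrier, olive oil, alone. The low dose (D1) was 20 mg/kg-bw/day, the medium dose (D2) was 40 and the high dose (D3) was 80 in the same unit. From D0 to D3 there were 5, 5, 5 and 5 lungs, 5, 5, 5 and 4 livers and 4, 5, 5 and 5 forestomachs, 58 arrays from 20 mice, with mice 1 to 5 in D0, 6 to 10 in D1, 11 to 15 in D2 and 16 to 20 in D3. Each array set the RNA of 1 tissue of 1 mouse, labelled with Cy5, against a universal reference RNA pooled from 11 mouse cell lines, labelled with Cy3. A log2 ratio of 0 therefore means the same signal as that reference, and ratios of different genes are not levels that can be ranked against each other. The study asked which genes respond to this compound in each tissue and at which dose.

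The sources used here hold promoter sequences of 36 of the 53 genes (37 promoters, each from 250 bases before to 50 bases after the start of the gene, RefSeq, build GRCm38.p6). Of these genes 20 lie on chromosome 11, which holds the type I keratin cluster, and 16 on chromosome 15, which holds the type II cluster. The promoters of Krt31 and of its cluster neighbours Krt34 and Krt32 are shown because Krt31 changed with the dose in the forestomach, Krt34 was not above background there and Krt32 was high at every dose. The promoter of Krt10, a keratin of cornifying cells with one of the highest signals in the forestomach, is shown because it holds the core motif to which the aryl hydrocarbon receptor (AhR), the receptor for polycyclic aromatic hydrocarbons, binds with its partner. All 4 lie on the minus strand and are written 5′ to 3′ along the gene, at chr11:100050502-100050801 (Krt31), chr11:100041505-100041804 (Krt34), chr11:100088220-100088519 (Krt32) and chr11:99389315-99389614 (Krt10). Capitals mark TATAAA on the gene strand and, in Krt10, CACGC, which reads GCGTG on the other strand:
Krt31: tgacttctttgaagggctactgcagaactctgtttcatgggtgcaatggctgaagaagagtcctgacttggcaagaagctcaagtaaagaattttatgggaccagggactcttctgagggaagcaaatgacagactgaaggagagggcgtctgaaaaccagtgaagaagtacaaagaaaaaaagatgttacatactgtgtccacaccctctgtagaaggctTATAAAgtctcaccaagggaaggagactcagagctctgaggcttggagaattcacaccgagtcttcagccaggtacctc
Krt34: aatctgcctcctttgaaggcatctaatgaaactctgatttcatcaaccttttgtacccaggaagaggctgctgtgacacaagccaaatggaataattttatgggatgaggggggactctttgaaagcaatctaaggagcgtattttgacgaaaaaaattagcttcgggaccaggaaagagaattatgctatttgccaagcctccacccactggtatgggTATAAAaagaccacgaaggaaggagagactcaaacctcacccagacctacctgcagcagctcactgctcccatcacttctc
Krt32: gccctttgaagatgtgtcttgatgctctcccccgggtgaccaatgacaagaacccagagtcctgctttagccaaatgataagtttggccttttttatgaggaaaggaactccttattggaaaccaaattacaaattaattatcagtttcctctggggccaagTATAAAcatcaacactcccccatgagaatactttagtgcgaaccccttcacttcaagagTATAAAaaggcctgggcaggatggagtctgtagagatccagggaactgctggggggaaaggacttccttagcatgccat
Krt10: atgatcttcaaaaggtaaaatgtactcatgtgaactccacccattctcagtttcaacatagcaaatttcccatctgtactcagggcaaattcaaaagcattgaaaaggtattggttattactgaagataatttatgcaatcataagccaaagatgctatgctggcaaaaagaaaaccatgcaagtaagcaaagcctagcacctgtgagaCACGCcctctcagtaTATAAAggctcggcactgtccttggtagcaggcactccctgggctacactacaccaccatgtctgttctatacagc

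Krt31 held 1 TATAAA at 29 bases before the start, Krt34 held 1 at 31 bases, Krt32 held 2 at 88 and 29 bases, and Krt10 held 1 at 26 bases with its CACGC at 41 bases. The letters GCGTG, searched on both strands, were in 5 of the 37 keratin promoters (13.5%) and in 32.4% of all 32851 promoters of the table. The letters TATAAA, searched on the gene strand, were in 17 of the 37 (45.9%) and in 8.32% of all promoters. By group, TATAAA was found for 5 of 9 hair and nail keratins and 6 of 8 keratins of the hair's inner root sheath. For simple, cornified and other keratins it was 2 of 5 each, and for basal and non-cornified keratins 0 of 2 each. Matches are descriptions of these windows only.

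The marker genes of each tissue fitted its label, with 8 of 8 lung genes above background in every lung, 9 of 9 liver genes in every liver and 6 of 6 squamous genes other than keratins in every forestomach. No array pair was identical. Gene probes well above background in Cy5 ranged from 42.9% to 53.8% for lungs, from 32.8% to 44.7% for livers and from 36.8% to 68.5% for forestomachs, where all 6 arrays of 1 of the 3 slides gave 36.8% to 40.6%. Each slide held all 4 dose groups of 1 tissue, so a difference between tissues cannot be told apart from one between slides. Some arrays had high signals of marker genes of another tissue, glandular stomach in forestomachs and squamous epithelium or skeletal muscle in lungs. These signals stand beside the results they touch, and their source was not tested.

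A probe was tested in a tissue where it was well above background on 4 or more of its arrays. In forestomach 38 of the 53 keratin genes passed (71.7%, 44 probes), in lung 21 (39.6%, 22 probes) and in liver 16 (30.2%, 16 probes), against 75.5%, 72.6% and 60.3% of all named genes. The remaining 15 were not tested in any tissue, namely 7 hair and nail keratins, 7 inner root sheath keratins and 1 other. Every simple, basal, non-cornified, cornified and injury keratin was tested in forestomach. Of the 6 simple keratins lung kept 5 and liver 4, and of the 6 cornified keratins lung and liver kept 3 each.

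Against the vehicle, the single keratin call was Krt31 in the forestomach at the high dose. A call needed an adjusted p (limma, Benjamini-Hochberg over every probe tested in the tissue) of 0.05 or less together with a change of 1.5-fold or more. In lung 0 of 22 keratin probes were called at the low, medium and high dose, where 0.00329%, 0.49% and 1.75% of all tested probes were. At each dose 1 lung keratin probe had an unadjusted p under 0.05, against 2246, 4824 and 7131 of all 30399 probes. In liver 0 of 16 were called at each dose, against 0.241%, 0.482% and 0.394% of all probes, and 2 had an unadjusted p under 0.05 at each dose, against 1746, 3099 and 3597 of all 22815. In forestomach 0, 0 and 1 of 44 were called, against 0%, 0.00928% and 0.0247% of all probes, with 3, 0 and 1 at an unadjusted p under 0.05 against 1570, 1129 and 1625 of all 32342. The median change of the keratin probes from D0 to D3 was -0.01 in lung, -0.04 in liver and 0.01 in forestomach on the log2 scale, and that of all probes was within 0.01 of 0 in each tissue. Single keratins differed by up to 4.30 (forestomach, low dose) and -1.28 (lung, medium dose) without passing the test.

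Krt31, a type I keratin of the hair cortex, rose 2.46-fold in the forestomach at 80 mg/kg-bw/day. The log2 ratios of the vehicle mice 1 to 4 were 0.96, 0.61, 0.81 and 0.95. At the low dose mice 6 to 10 gave 0.81, 0.72, 1.08, 1.15 and 0.42, and at the medium dose mice 11 to 15 gave 0.87, 1.04, 1.03, 0.92 and 0.49. At the high dose mice 16 to 20 gave 1.99, 2.12, 2.24, 2.03 and 2.26. The low and medium dose values lay in and around the vehicle range, and all 5 high dose values lay above every other forestomach array. The change from D0 to D3 was 1.30 on the log2 scale (SE 0.14, limma adjusted p = 0.00115), and among the 8 forestomach probes called at the high dose Krt31 had both the largest change and the smallest p. Within the 3 slides the D3 minus D0 difference was 1.10, 1.36 and 1.54. With the scanned ratios centred on each array's median in place of LOWESS, the change was 0.97 and was not called. Bulk tissue RNA cannot tell more cells expressing a gene apart from more RNA per cell.

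In liver and lung the same probe was above background on all arrays and did not pass the test. The vehicle livers of mice 1 to 5 gave log2 ratios of 1.28, 1.57, 1.31, 1.11 and 1.22, and the high dose livers of mice 16 to 19 gave 1.85, 1.36, 1.51 and 1.99. Of these, 2 lay above the vehicle range and 2 within it, and the change was 0.38 (SE 0.18, limma adjusted p = 0.319). The vehicle lungs of mice 1 to 5 gave 0.22, 0.12, 0.05, -0.34 and -0.24, and the high dose lungs gave -0.18, -0.12, -0.30, -0.10 and -0.40, overlapping throughout, with a change of -0.18. The high dose effect differed between forestomach and lung by 1.48 (SE 0.21, limma adjusted p = 7.71e-05), 1 keratin probe of 22, where 0.246% of all probes tested in both tissues were called. Between forestomach and liver the Krt31 effects differed by 0.92 (SE 0.21, adjusted p = 0.116), which was not called, so that 0 of 16 keratin probes were, against 0.0226% of all probes. It was called without mouse 5, with the slide as a random block and with loess ratios computed from the scanned intensities. Between lung and liver 0 of 16 keratin probes were called for this difference, against 2.04% of all probes.

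With the vehicle, the Krt31 ratio was highest in liver (1.30 ± 0.17, SD, n = 5), then forestomach (0.83 ± 0.17, SD, n = 4), then lung (-0.04 ± 0.24, SD, n = 5). Lung lay 1.34 below liver (adjusted p = 6.12e-12, limma) and forestomach 0.87 above lung (adjusted p = 2.54e-06, limma). The neighbours liver and forestomach differed by less than 1.5-fold, forestomach minus liver being -0.47 (adjusted p = 0.00635, limma). In log2 Cy5 alone, forestomach minus liver was 0.28 as scanned and -0.48 after normalisation, so the order of these 2 tissues depended on the normalisation. Lung minus liver was -0.52 as scanned and -1.19 after normalisation. Since each tissue had its own slides, tissue and slide cannot be told apart in these differences. Vehicle lungs averaged -0.29, 0.05 and 0.17 on their 3 slides (n = 2, 1 and 2).

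Since a ratio can move through either dye, the Cy5 and Cy3 signals of Krt31 were also tested apart, each as log2 intensity after loess within and Aquantile normalisation between arrays. The Cy5 signal in forestomach went from 7.73 ± 0.18 (SD, n = 4) to 9.39 ± 0.14 (SD, n = 5), a change of 1.65 (SE 0.16, limma adjusted p = 9.55e-05), and 31 of the 32342 probes rose more. The Cy3 signal, which comes from the same reference RNA on every array, went from 6.77 ± 0.09 (SD, n = 4) to 7.13 ± 0.12 (SD, n = 5), by 0.36 (SE 0.09, limma adjusted p = 0.0896), and 106 probes rose more. Both dyes thus went up at the high dose, the Cy3 change did not pass the test, and the ratio moved less than Cy5 alone. The Cy3 difference was 0.32, 0.43 and 0.32 within the 3 slides. Over all probes, 0.164% were called for Cy5 and 0.17% for Cy3 in this comparison. In liver the changes were 0.47 in Cy5 and 0.13 in Cy3, and in lung -0.16 and 0.00, none called, where 0.451% and 1.42% of all probes were called for Cy5 and 0.0482% and 0.023% for Cy3. What moved the Cy3 signal was not tested.

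**Figure D1:**
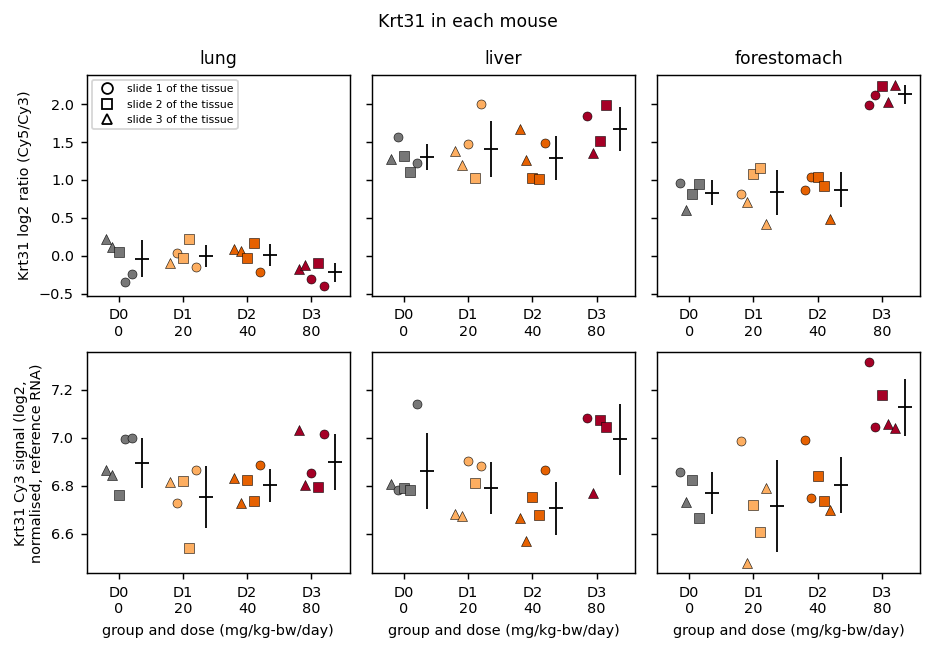
Krt31 by tissue and dose group, as the deposited log2 ratio (upper row) and the normalised log2 Cy3 signal of the reference RNA (lower row), with 1 point per array, its shape giving the slide, and the mean ± SD beside each group. In forestomach the 5 high dose arrays sit between 1.99 and 2.26, above all other forestomach arrays, and their Cy3 signal is also raised, by 0.36.

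As scanned, before normalisation, the forestomach Cy5 signal of Krt31 was 116 to 375 on the D0, D1 and D2 arrays. On the D3 arrays it was 1085, 880 and 951 on the brighter pair of slides and 387 and 338 on the dimmer slide, where the D0 to D2 arrays gave 116 to 124. The Cy3 signal ran from 74.5 to 150 on the D0 to D2 arrays and from 117 to 210 on the D3 arrays. The probe was above background in both dyes on all 58 arrays. The sequence of the probe is not given in the sources used here, so whether it also takes up RNA of other hair keratins was not tested. Of the close relatives of Krt31, Krt33a, Krt33b, Krt34 and Krt35 were not above background on 4 arrays of any tissue.

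The other hair and nail keratins of the forestomach gave no call. Krt32, a hair cuticle keratin, had a ratio of 4.49 ± 1.14 (SD, n = 4) with the vehicle and 4.48 ± 0.96 (SD, n = 5) at the high dose. Krt84, a keratin of nail and tongue papillae, had 2.84 ± 0.25 and 3.15 ± 0.35, Krt81 had 1.07 ± 0.42 and 0.94 ± 0.51, and Krt82 had 1.11 ± 0.15 and 1.12 ± 0.27. Their vehicle and high dose arrays overlapped. The genes of the hair shaft other than keratins (keratin-associated proteins, trichohyalin, Hoxc13 and others, 57 genes) gave 0 calls among 35 probes at any dose in forestomach, where the share of all probes called was at most 0.0247%, with a median change of -0.04 at the high dose over 30 tested genes.

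Across the dose range, a slope was called at an adjusted p of at most 0.05. In forestomach 1 of 44 keratin probes had one, against 0.0309% of all probes, and it was Krt31 at 1.38 per 80 mg/kg-bw/day (SE 0.20, limma adjusted p = 0.0170), although its values at the low and medium dose lay around the vehicle values. Without mouse 17, 18 or 19 this slope was no longer called. In lung 1 of 22 had one, where 11% of all probes did, and it was Krt222, a keratin-like gene, which went from 1.17 ± 0.17 to 0.91 ± 0.15 (SD, n = 5 each), with a slope of -0.28 (SE 0.09, limma adjusted p = 0.0416). The Krt222 slope was lost when any 1 of 10 of the 20 mice was left out (mice 2, 3, 4, 6, 8, 13, 16, 17, 18 and 19), and the lung slopes called then ranged from 0 to 2. In liver 0 of 16 had one, against 0.907% of all probes, with 3 at an unadjusted p under 0.05 by limma.

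With the vehicle, keratins differed between the tissues by gene. Among the 22 keratin probes tested in both forestomach and lung, 10 were higher in forestomach (Krt2, Krt5, Krt10, Krt13, Krt14, Krt15, Krt16, Krt31 and Krt42) and 4 lower (Krt7, Krt18, Krt19 and Krt79), where 14.9% and 16.8% of all such probes were higher and lower. Among the 16 tested in both forestomach and liver, 8 were higher in forestomach and 2 lower (Krt18 and Krt73), against 21.6% and 23.5%. Among the 16 tested in both lung and liver, 5 were higher in lung (Krt19, Krt23, Krt42, Krt79 and Krt222) and 4 lower (Krt10, Krt16, Krt31 and Krt73), against 25.6% and 26%, shares close to those of all probes. The other Krt10 probe, which did not pass the filter in liver, was called higher in lung (1.14). Another 22 and 28 probes entered the comparisons of forestomach with lung and with liver through 1 of the 2 tissues alone. These had to be dim in the other tissue, so the counts that include them describe the filter as well as the gene. With them, 26 of 44 probes were higher and 4 lower than in lung (14.6% and 16% of all probes), 30 of 44 were higher and 2 lower than in liver (21.4% and 17.7%), and 8 of 22 were higher and 4 lower in lung than in liver (25.8% and 21%). By role and with the same filter, forestomach was higher than lung, and higher than liver, in 4 of 4 basal, 5 of 5 non-cornified, 5 of 7 cornified, 4 of 5 injury and 4 of 8 hair and nail probes, with Krt16 and Krt31 called against lung alone and Krt6a and Krt81 against liver alone. Of 6 simple probes 0 were higher than in lung and 3 lower, and 3 were higher than in liver and 1 lower. These role counts also hold probes that entered through 1 tissue alone and had to be dim in the other. Among basal and non-cornified probes, only those of Krt15 and 1 of Krt13 also passed the filter in liver.

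**Figure D2:**
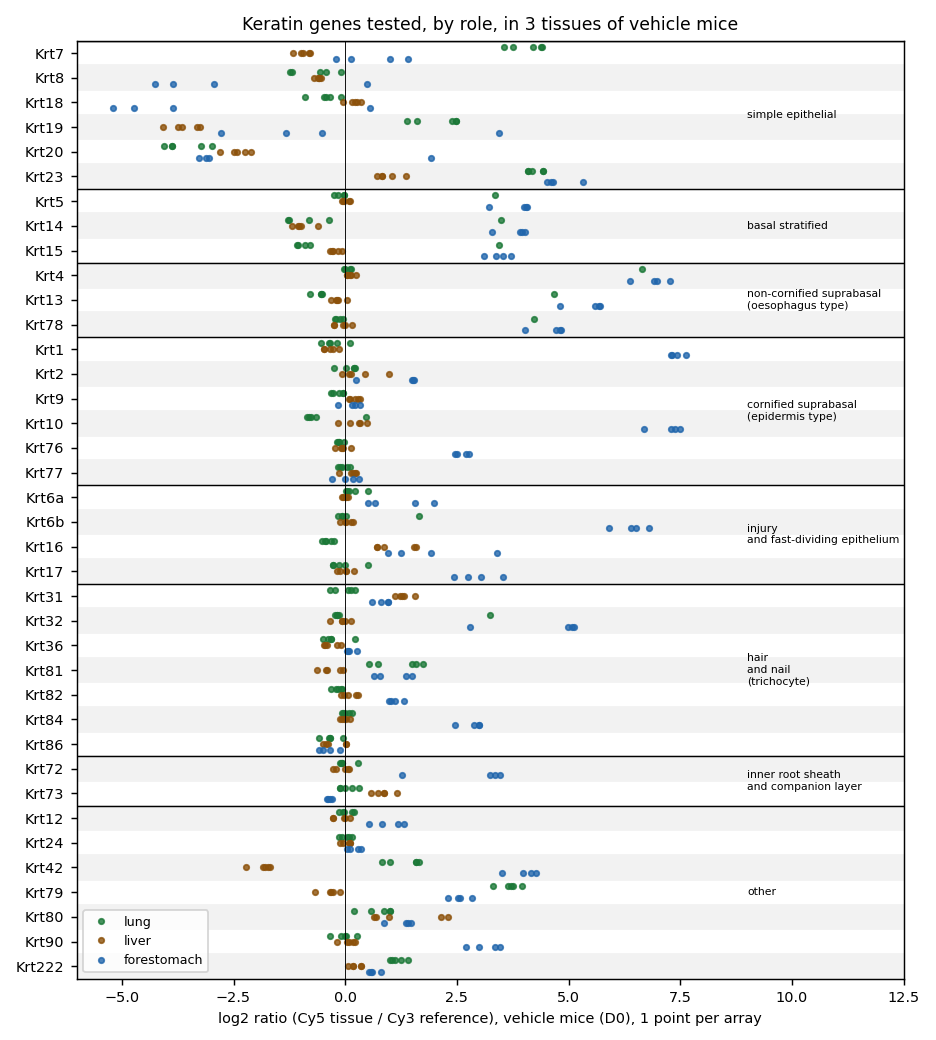
Log2 ratios (x axis) of the 38 keratin genes tested in any tissue, grouped by role, in the vehicle mice, with 1 point per array coloured by tissue. Krt1 and Krt10 lie between 6.69 and 7.62 in every forestomach and below 0.50 in every lung and liver, and Krt7 lies highest in lung.

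Of the cornifying keratins, Krt1 and Krt10 stood far above lung and liver in the forestomach, while Krt9 and Krt77 were not called. Krt1, the type II partner of Krt10, had a ratio of 7.41 ± 0.15 (SD, n = 4) in vehicle forestomach, -0.26 ± 0.24 (SD, n = 5) in lung and -0.34 ± 0.15 (SD, n = 5) in liver. Krt10 had 7.22 ± 0.36 in forestomach, -0.52 ± 0.56 in lung and 0.22 ± 0.25 in liver, and its other probe gave 5.52, 1.05 and -0.08. The Krt10 probes disagreed on lung against liver, at -0.74 and 1.14, both called. Over all 7 cornified probes the median of forestomach minus liver was 2.67. Krt1, Krt76, Krt77 and the other Krt10 probe did not pass the background filter in liver, so this median describes the filter as well.

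The non-cornified keratins had a median of 5.61 for forestomach minus liver over 5 probes. Of these only a Krt13 probe also passed the background filter in liver, so this median describes the filter as well. Krt4 had a forestomach ratio of 6.89 ± 0.38 and a liver ratio of 0.11 ± 0.09. Its partner Krt13 had 5.44 ± 0.43 in forestomach and -0.16 ± 0.13 in liver. In lung these 2 genes had 1.37 ± 2.95 and 0.45 ± 2.36 (SD, n = 5), with mouse 5 alone high, at 6.65 and 4.67.

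The basal keratins Krt5 and Krt14, which pair with each other, had forestomach ratios of 3.83 ± 0.41 and 3.80 ± 0.34 (SD, n = 4) and liver ratios of 0.01 ± 0.08 and -0.98 ± 0.22 (SD, n = 5). Krt15, another basal keratin, had 3.44 ± 0.25 in forestomach and -0.23 ± 0.11 in liver. Over all 19 forestomach arrays Krt14 ran from 3.12 to 4.02 and Krt5 from 2.96 to 4.06, while the other Krt5 probe ran from 1.34 to 4.29.

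Among injury keratins, Krt6b had a forestomach ratio of 6.41 ± 0.37 against 0.04 ± 0.11 in liver, and its other probe had 3.29 ± 0.27 against 0.10 ± 0.12. Krt17 had 2.94 ± 0.47 and Krt6a 1.18 ± 0.71 in forestomach, with -0.01 for both in liver. Krt16 had 1.87 ± 1.09 in forestomach, -0.40 ± 0.11 in lung and 1.08 ± 0.44 in liver. Krt32 was the hair keratin that set the forestomach furthest apart, at 4.49 against -0.07 in liver.

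On the probe that describes each gene, Krt1, Krt4, Krt5, Krt14, Krt6b, Krt17, Krt6a and Krt32 were not well above background on any vehicle liver array. Their liver signal on these probes is known only as an upper limit. By normalised Cy5 signal alone, forestomach was at least 1783-fold brighter for Krt1, 945-fold for Krt5, 279-fold for Krt14, 275-fold for Krt4, 81.4-fold for Krt6b, 23.6-fold for Krt32, 11.4-fold for Krt17 and 2.56-fold for Krt6a. These folds set the mean Cy5 signal of the forestomach against the mean, over the liver arrays, of the higher of the probe's own signal and the dimmest signal counted as above background, and for these 8 probes the probe's own signal was the higher. They concern the Cy5 signal, not the ratio, and without a dye swap they are open to dye bias. The folds also depend on the probe. The other Krt5 probe gave a bound of 12.6-fold. The other Krt6b probe, above background on 1 vehicle liver array, differed by 3.23 in normalised log2 Cy5. The log2 Cy3 signal of the reference was also higher in forestomach for Krt5, Krt1 and Krt14, by 5.95, 2.88 and 3.22. It was not for Krt6b (-0.12), and for the other Krt5 probe it differed by only 0.15. The folds are therefore bounds on the signal, not on tissue RNA. In the ratio the same differences were smaller for the brightest of them, 7.75 on the log2 scale for Krt1, 6.78 for Krt4, 4.77 for Krt14 and 3.83 for Krt5.

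The 6 simple keratins did not share 1 pattern. Krt7, made by alveolar and bronchial epithelium and by ducts, had a ratio of 4.06 ± 0.39 (SD, n = 5) in vehicle lung, 0.58 ± 0.74 (SD, n = 4) in forestomach and -0.95 ± 0.15 (SD, n = 5) in liver. Lung minus liver was 5.00 (adjusted p = 1.08e-22, limma). Krt19, made by ducts and simple epithelia and lacking in hepatocytes, had 2.06 ± 0.53 in lung and -3.61 ± 0.33 in liver, a difference of 5.67 (adjusted p = 3.77e-07, limma). Krt23 had 4.25 ± 0.17 in lung, 4.77 ± 0.37 in forestomach and 0.95 ± 0.26 in liver. Krt8 and Krt18, the pair of hepatocytes and most simple epithelia, were near the reference in both tissues, at -0.70 and -0.45 in lung and -0.61 and 0.19 in liver, and were not called between them. Krt20 had -3.61 ± 0.47 in lung and -2.41 ± 0.26 in liver, not well above background on any vehicle array of either, and -1.87 ± 2.53 in forestomach. Forestomach was lower than lung in Krt7 (-3.47, called whichever vehicle mouse was left out), Krt18 (-2.86) and Krt19 (-2.36). The calls of Krt18 and Krt19 were lost without mouse 1, 3 or 4, with adjusted p up to 0.104 and 0.299 (limma), and the forestomach of mouse 2, which had high gland genes, lay at 0.55 and 3.45, above every vehicle lung. Among the remaining keratins Krt79 had 3.68, -0.34 and 2.56 and Krt42 had 1.32, -1.85 and 3.98 in lung, liver and forestomach.

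The tissue differences in the ratio were smaller than those in Cy5 for the brightest keratins, because the Cy3 signal was also higher where Cy5 was high. For Krt5, forestomach minus liver was 9.88 in normalised log2 Cy5, 5.95 in Cy3 and 3.83 in the ratio. The other, dimmer Krt5 probe gave 3.67, 0.15 and 3.36, so its Cy3 signal was hardly higher. For Krt1 the same differences were 10.80, 2.88 and 7.75, and for Krt14 8.12, 3.22 and 4.77. The reference RNA was the same on all arrays. Not all high keratins did so, with Krt6b at 6.35 in Cy5 and -0.12 in Cy3 and Krt42 at 5.75 and -0.27. Of the keratin probes more than 6 higher in forestomach Cy5 than in liver, 11 of 12 were also more than 1 higher in Cy3 (91.7%), against 96 of 158 of all such probes (60.8%). Against lung the figures were 9 of 10 and 75 of 96 (78.1%). Below that Cy5 difference 1 of 32 keratin probes did so against liver, and 0.903% of all probes. In the vehicle lungs the scanned log2 Cy3 signal of Krt5 ran from 5.83 to 12.3. No Cy5 value of a keratin was marked as saturated. The cause of the Cy3 differences was not tested.

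**Figure D3:**
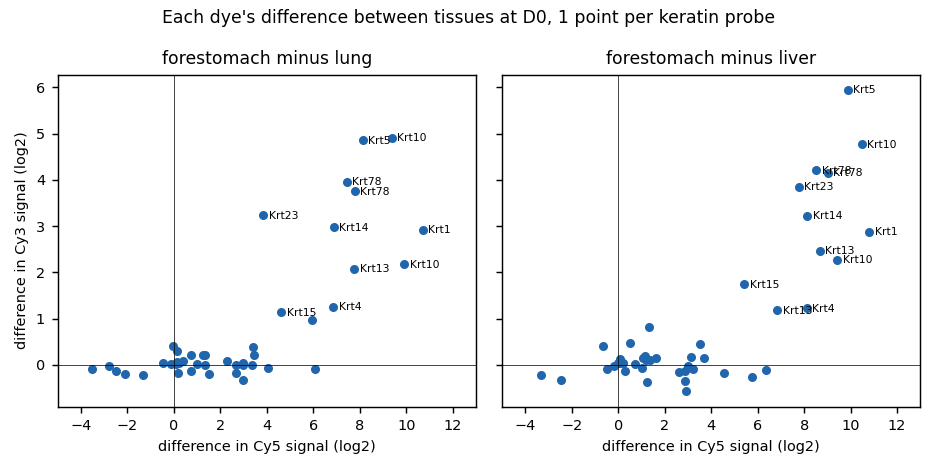
Difference between vehicle forestomach and vehicle lung (left) or liver (right) in normalised log2 Cy3 (y axis) against that in normalised log2 Cy5 (x axis), with 1 point per keratin probe and names above 1 in Cy3. Against liver, 11 of the 12 probes beyond 6 in Cy5 are also more than 1 higher in Cy3.

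Within the forestomach, the simple keratins split the arrays. Of the 19 forestomach arrays 10 had high levels of 11 genes of glandular stomach, with a mean log2 ratio of 5.15 to 6.49 and all 11 above background. The other 9 had 0.56 to 2.86, with 5 to 11 above background. The 10 arrays were 1 of 4 at D0 (mouse 2), 5 of 5 at D1, 2 of 5 at D2 (mice 14 and 15) and 2 of 5 at D3 (mice 19 and 20), and by slide 1 of 6, 3 of 7 and 6 of 6. Krt8 ran from -0.15 to 2.67 on these 10 arrays and from -4.27 to -2.93 on the others. Krt18 ran from -1.47 to 1.60 against -5.20 to -3.85, Krt19 from 1.73 to 4.77 against -2.78 to -0.51, and Krt20, a keratin of gastric and intestinal surface epithelium, from 1.71 to 3.53 against -3.27 to -1.46. These 4 keratins were the ones of 44 probes whose values did not overlap between the 10 and the 9 arrays, where 2.71% of all tested probes did not overlap.

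**Figure D4:**
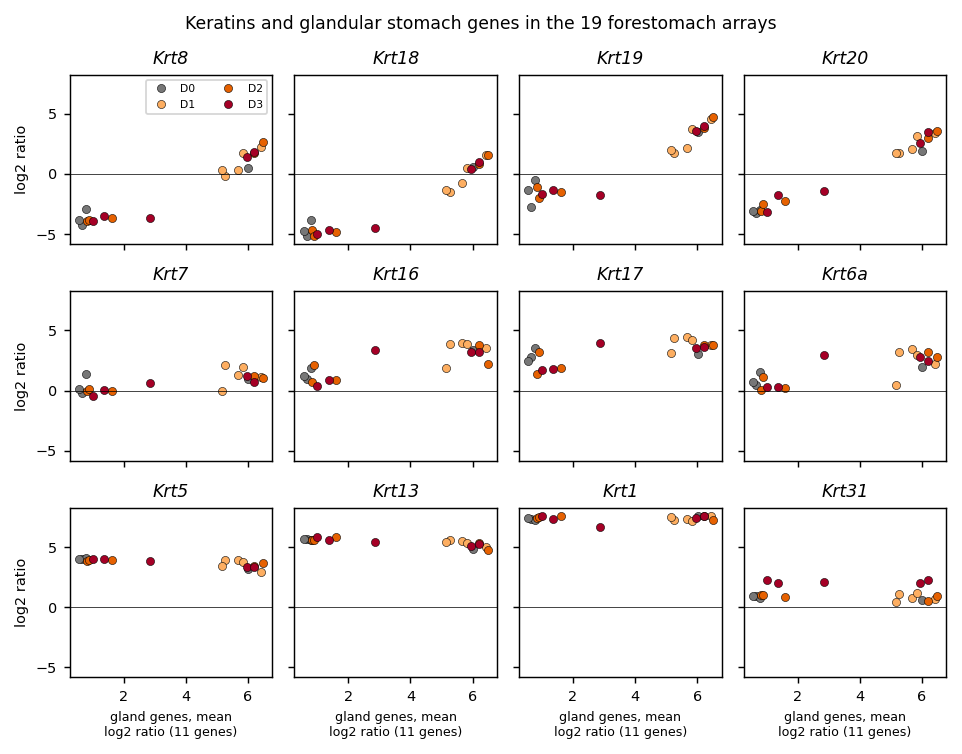
Log2 ratios of keratins in each forestomach array (y axis) against the mean log2 ratio of 11 glandular stomach genes in the same array (x axis), with colours for the dose groups. Krt8, Krt18, Krt19 and Krt20 fall into a low set of 9 arrays and a high set of 10, while Krt1 stays between 6.70 and 7.62 on all 19.

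Every low dose forestomach was among the 10. From D0 to D1 Krt20 differed by 4.30, Krt8 by 3.52 and Krt16 by 1.56 (limma adjusted p = 0.931 each). With the mean gland ratio as a covariate, an alternative added after seeing the data, the same differences were 0.32, -0.33 and 0.13. Krt31 at the high dose differed by 1.35 with this covariate (adjusted p = 0.000386, limma) and by 1.21 without the 10 arrays (adjusted p = 0.0019, limma). Leaving out the 10 was also chosen after seeing the data. It removed 1 of 4 vehicle, 5 of 5 low dose and 2 of 5 high dose arrays, so few were left in each group. The Krt31 values were 2.03 and 2.26 on the high dose arrays with high gland genes and 1.99, 2.12 and 2.24 on the others.

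The injury keratins were also high on most of the 10 arrays, with overlap. Krt16 ran from 1.86 to 3.98 on the 10 and from 0.37 to 3.38 on the 9, Krt17 from 3.04 to 4.44 against 1.37 to 4.00, and Krt6a from 0.47 to 3.43 against 0.07 to 2.95. The high dose mouse 17, whose gland genes were low at 2.86, held the upper value of each of these low sets. At the high dose Krt16 was 0.84, 3.38, 0.37, 3.20 and 3.18 in mice 16 to 20 and with the vehicle 0.95, 3.39, 1.91 and 1.24 in mice 1 to 4, so both groups spanned nearly the same range. The part of the gland genes, and of what they stand for, in these values was not tested.

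In lung some stratified keratins were high in 3 mice. Over all 20 lungs the median ratio was -1.17 for Krt14, -0.92 for Krt15 and -0.64 for Krt13. In the vehicle lungs of mice 1 to 4 Krt4 was 0.10, -0.04, 0.13 and -0.01, not above background, and in mouse 5 it was 6.65. The same lung had Krt13 at 4.67, Krt14 at 3.48, Krt15 at 3.45 and Krt5 at 3.36. Its squamous genes other than keratins had a mean ratio of 3.02 with 5 of 6 above background, and its 4 skeletal muscle genes had a mean ratio of 4.71 with all 4 above background. At the high dose mouse 16 had Krt4 at 2.69, Krt5 at 2.53 and Krt15 at 2.12, with squamous genes at 2.20 and muscle genes at 1.34. Mouse 17 had Krt17 at 2.61 and Krt5 at 2.39, with Krt4 at 0.13, squamous genes at 0.29 and muscle genes at -0.33. The squamous genes of the other 17 lungs lay between 0.09 and 0.25.

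**Figure D5:**
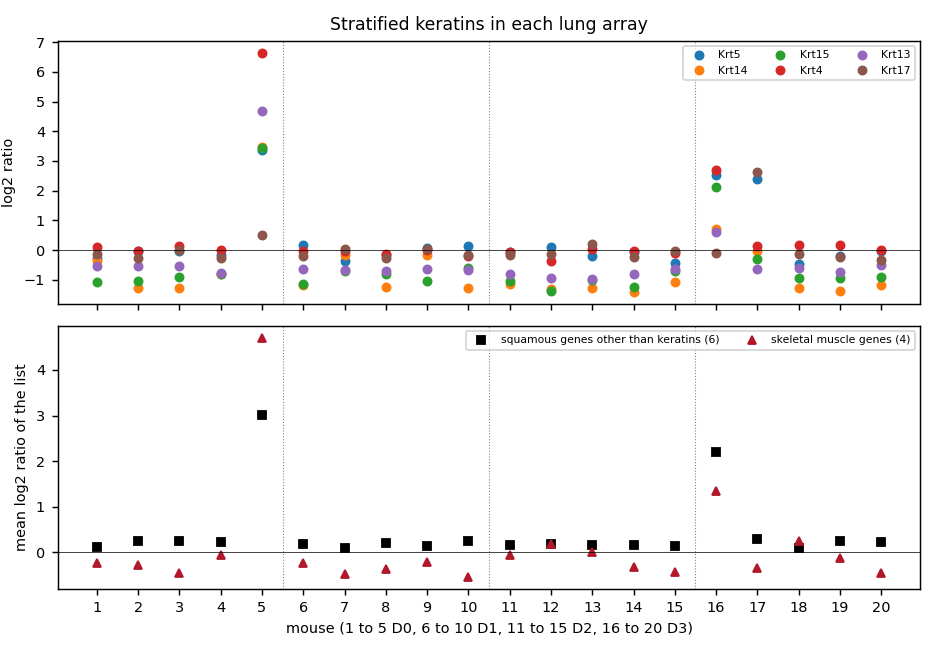
Log2 ratios of 6 stratified keratins in each of the 20 lung arrays by mouse (upper panel), and the mean log2 ratio of 6 squamous genes other than keratins and of 4 skeletal muscle genes in the same arrays (lower panel). Mouse 5 stands highest in both lists and in Krt4 at 6.65, mouse 16 follows, and mouse 17 is high in Krt5 and Krt17.

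Without mice 5, 16 and 17, a choice made after seeing the data, 0 of the lung keratin probes were called at each dose, as with them. Without mouse 5 the vehicle forestomach minus lung difference was 6.85 for Krt4, 6.04 for Krt13, 4.73 for Krt14, 4.39 for Krt15 and 3.95 for Krt5, against 5.53, 4.99, 3.84, 3.51 and 3.26 with it. Lung minus liver for Krt15 was 0.16 with mouse 5 (not called) and -0.74 without it (limma adjusted p = 0.0261).

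In liver no keratin passed the test at any dose. Krt8 was -0.61 ± 0.05 (SD, n = 5) with the vehicle and -0.21 ± 0.44, -0.23 ± 0.39 and -0.38 ± 0.06 at the low, medium and high dose, and Krt18 was 0.19 ± 0.15 and 0.34 ± 0.22 at D0 and D3. Krt23, a type I keratin known to be induced in stressed mouse liver, was 0.83, 1.04, 1.36, 0.70 and 0.82 with the vehicle and 2.14, 2.44, 0.96 and 1.18 at the high dose. Of the high dose livers 2 lay above the vehicle range, and the difference of 0.73 (SE 0.28, limma adjusted p = 0.210) was not called. In liver Krt16 and Krt80 differed between slides. Krt80 was 2.13 to 2.31 on the 6 livers of slide 1 and 0.38 to 0.98 on the other 13, and Krt16 was 1.32 to 1.69 against 0.68 to 1.02, with all 4 dose groups on every slide. The vehicle livers lay on all slides, so the vehicle liver mean of Krt16 mixes both ranges. The share of all liver probes that differed in this way was not counted, and the cause was not tested.

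Genes that work beside keratins were described in the same way, and their counts of calls are near the small shares of all probes given above for each tissue and dose. Of 25 cornification and desmosome genes (Lor, Ivl, Dsg3, Trp63 and others) 24 were tested in forestomach, 15 in lung and 11 in liver, with 0 called at any dose. In lung their median change was -0.52, -0.66 and -0.45 at the low, medium and high dose, against medians of all probes within 0.01 of 0, and without mice 5, 16 and 17 it was 0.01, -0.13 and -0.13. In forestomach it was -0.18, -0.06 and -0.14. Of 14 genes for proteins that bind or accompany keratin filaments (Dsp, Plec, Vim and others) 14, 13 and 14 were tested in lung, liver and forestomach with 0 called. Tchp, which encodes trichoplein, a keratin filament binding protein, had a lung high dose change of 0.41 (limma adjusted p = 0.0198), below the fold threshold. The hair shaft genes gave 0 calls in lung (27 genes tested) and liver (17) at any dose.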

How the data were processed

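Gene expression was measured on 58 dual-colour Agilent arrays with 62976 spots, Cy5 for the tissue of 1 mouse and Cy3 for the reference, without dye swaps. Per the file headers, the deposited scanner files hold spot intensities (Feature Extraction 10.7.3.1). The authors took median signals without background correction, normalised each array by LOWESS in R and deposited log2 ratios (Cy5 over Cy3), which they tested with MAANOVA. Those log2 ratios were used here as deposited. Against a loess fit of the intensities they correlated with r of 0.995 to 0.998 per array, and their column medians were -0.04 to -0.02, so the scale is log2 and the direction Cy5 over Cy3.

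MAANOVA was replaced by limma 3.58.1 (R 4.3.3, data.table package version 1.17.8), two-sided. Each tissue had its own model of 4 dose groups. A joint model of the 12 groups gave the vehicle contrasts between tissues and the differences in the high dose effect. A probe entered a dose test if its Cy5 signal was well above background on 4 or more arrays of the tissue (30399 probes in lung, 22815 in liver, 32342 in forestomach), a vehicle contrast if it passed in either tissue, and a difference of effects if it passed in both. Thresholds were an adjusted p of at most 0.05 and a fold of 1.5 (slopes: adjusted p only). The accessions of 26413 probes matched symbols in a gene list from RefSeq (GRCm38.p6). For genes with several probes, each was tested, and the gene is described by the one above background on most arrays. Single dye signals came from the intensities after loess and Aquantile, leaving out outlier spots (0.495%). The fits were tested on simulated data.

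Keratin roles, named genes (Krt31, every keratin called, and Krt8, Krt18, Krt19, Krt7, Krt5, Krt14, Krt15, Krt4, Krt13, Krt1, Krt10, Krt6a, Krt16 and Krt17) and lists were chosen with earlier results of these data known. Other keratins named were chosen after their values were seen. Alternatives covered background correction, scaling, filters, slide and mouse blocks and single mice left out. Tissues with the same mouse number came from the same animal, so the numbers pair tissues. The deviations of a mouse from its group means correlated between tissues with a median r of 0.13 (lung and liver), 0.10 (forestomach and lung) and 0.05 (forestomach and liver). Slices of each organ were used for RNA, and each mouse is 1 replicate. The number of arrays limits the precision.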

Additional observations from a re-analysis of the deposited data

Results flagged for a closer look

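Among 143 groups of 4 or 5 arrays examined for the named keratins, 18 held a mouse far from the others by Dixon's criterion. For independent groups chance gives about 1 in 20. These groups were not independent, since the same arrays were examined for each keratin, so the 18 cannot be set against that share. In vehicle lung mouse 5 stood apart in Krt5 (log2 ratio 3.36), Krt14 (3.48), Krt15 (3.45), Krt4 (6.65), Krt13 (4.67) and Krt10 (0.47). In high dose lung mouse 16 stood apart in Krt15 (2.12), Krt4 (2.69) and Krt13 (0.61), mouse 17 in Krt17 (2.61) and mouse 19 in Krt10 (-0.23). In vehicle forestomach mouse 2, the vehicle array with high gland genes, lay below the others in Krt5 (3.21), Krt14 (3.29) and Krt13 (4.80). In the remaining forestomachs the values were 6.70 for Krt1 in mouse 17 at the high dose and 1.86 for Krt16 in mouse 10 at the low dose. In liver at the medium dose they were 0.24 for Krt10 in mouse 12 and 1.69 for Krt16 in mouse 15, the latter on the slide where Krt16 was high in all dose groups.

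The high dose effect on Krt31 differed between forestomach and lung by 1.48, tested as an interaction by limma (adjusted p = 7.71e-05), and leaving out any 1 mouse of these dose groups gave 1.36 to 1.59.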

How the results depend on the processing

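Of 129 checks of Krt31 at the high dose, 127 kept direction and side of the threshold or stayed uncalled, and 2 were weaker. These checks pooled the ratio and the single dye signals of every tissue. Only the forestomach ratio and its Cy5 signal were called in the main fit. The other signals had only to stay uncalled, and 6 uncalled values changed sign. The 127 therefore do not measure how firm the forestomach rise was. Of 627 checks of other tests, 582 stayed the same, 30 were weaker, 14 stronger and 1 reversed. Of 380 recomputed counts 356 stayed within 1.5 times. Under median centring without loess the Krt31 change in forestomach was 0.97 and not called, leaving 0 keratin probes called there and 0 differing from lung in the high dose effect, and its Cy5 change with scanner medians minus each array's median was 1.40 and not called. Leaving out any 1 vehicle or high dose mouse gave 1.22 to 1.34, called each time. Slopes called went from 1 to 0 in forestomach without mouse 17, 18 or 19 (range 0 to 1) and ranged from 0 to 2 in lung, where no filter on dim probes gave 0. In lung the slope of Krt222 was lost without any 1 of 10 mice, that of Krt10 was called without mouse 5 (0.44) and that of Krt2 without mouse 16 (-0.29). With probes required in both tissues, 10 keratin probes differed between forestomach and liver and 14 between forestomach and lung, among fewer probes by construction. The high dose effect on Krt31 differed between forestomach and liver in 1 probe with loess ratios computed here, 1 with the slide as a random block and 1 without mouse 5 (range 0 to 1), and between lung and liver in 1 with that block. With the slide as a fixed block 1 hair shaft gene was called in lung (Krtap19-4, -0.66) and 1 in liver (Krtap20-2, -1.06). Without vehicle mouse 5, Krt15 in lung minus liver turned to -0.74, and with other vehicle mice left out it was up to 0.45. With the mouse as a replicate block, 13, 31 and 32 keratin probes differed between lung and liver, forestomach and lung, and forestomach and liver, against 12, 30 and 32, with Krt14 (0.93, lung minus liver) and Krt6a (1.05, forestomach minus lung) added among the named genes (without vehicle mouse 5 and with no block, Krt14 was at 0.14, limma adjusted p = 0.678), and 0, 1 and 0 in the high dose effect, as without it. Dim keratins near background in lung and liver limit their folds to bounds. Causes were not tested.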
